A study of Homo sapiens with 6 samples.

Results

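The genes described here encode the subunits of the human proteasome, the factors that assemble it, and the proteins that activate, inhibit or transcriptionally control it. The members were all rows of the count table named PSMA1 to PSMA7, PSMB1 to PSMB10, PSMC1 to PSMC6, PSMD1 to PSMD14, PSME1 to PSME4, PSMF1 or PSMG1 to PSMG4, together with POMP, ADRM1, NFE2L1 and DDI2. All 50 symbols were found among the 27470 genes of the table, and 49 passed the filter on low counts. The member left out of the tests was PSMB9.

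The cells were 22Rv1-ABHD5, a castration-resistant human prostate cancer line transduced with a lentiviral pInducer20 vector, so that ABHD5, the coactivator of the triglyceride lipase ATGL, is under a doxycycline (Dox)-inducible promoter. Both groups carry the transgene and were cultured for 48 h: 3 libraries without Dox (labelled Control) and 3 with Dox (labelled OE, overexpressing ABHD5). The methods describe selection of the infected cells with G418 and no cloning step, and name no Dox dose for these libraries. Parent cells given Dox were not analysed here, and effects of Dox itself and of ABHD5 cannot be told apart.

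The proteasome is the barrel-shaped protease that destroys proteins tagged with ubiquitin. Its 20S core stacks rings of alpha subunits, which gate the entrance, around rings of beta subunits, some of which carry the proteolytic sites. The 19S cap recognizes the ubiquitin chain, removes it and unfolds the substrate: its base holds a ring of ATPases, large scaffold subunits and ubiquitin receptors, and its lid holds the deubiquitinase. Dedicated chaperones build the core and the base, and in many cells the transcription factor NFE2L1 raises nearly all subunit mRNAs when proteasome activity is short, by binding antioxidant response elements in their promoters. NFE2L1 is also known as one route by which mTORC1, the growth kinase complex that the study examined, controls proteasome gene expression.

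Reads came from the 3ʹ ends of polyadenylated transcripts, and 3394672 to 7271771 reads per library were counted on genes. Values below are CPM, the reads of a gene scaled to a common library size, after TMM normalization, which corrects each library by a trimmed mean of its gene-wise ratios to the others. Because a 3ʹ library reads only the end of each transcript, CPM are compared between libraries of the same gene and not between genes. ABHD5 was at 63.5, 58.0 and 62.8 CPM without Dox and at 126, 131 and 91.7 CPM with Dox, a log2 fold change of 0.91 (standard error 0.15, edgeR's quasi-likelihood test, adjusted p = 1.978e-04). Of the 9 prostate epithelial markers fixed for this check, all had counts, and their summed level was 1442 to 1517 CPM without Dox and 898 to 991 CPM with Dox. The 5 leukocyte markers summed to 3.13 to 6.12 CPM and the 5 fibroblast markers to 4.96 to 9.98 CPM over the 6 libraries, with no reads on the T cell gene CD3E. Of all listed reads, 32.5% to 34.6% matched no counted gene in the libraries without Dox and 35.6% to 39.5% in those with Dox. The part that this and the prostate markers had in the results was not tested. In bulk RNA, fewer cells of a kind and less RNA per cell cannot be told apart.

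The antioxidant response element, the site that NFE2L1 recognizes with its small Maf partners, is shown first, because the members that carry it included both genes that fell with Dox and genes that did not. The core TGACNNNGC was searched on both strands of the RefSeq promoters (GRCh38.p14, 250 bases before to 50 after each start), of which 44 members had at least 1. The 5 windows below hold the core in capitals with up to 30 bases on each side, end before the start site, contain no GENCODE 44 exon, and are written in the direction of the gene. They comprise both falling members with such a window (ADRM1 and PSMG1) and 3 subunit genes that did not pass the test (PSMB3, PSMD3 and PSMD12).
ADRM1, chr20:62302729-62302797, plus strand: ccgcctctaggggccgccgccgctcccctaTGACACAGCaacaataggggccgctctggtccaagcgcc
PSMG1, chr21:39183596-39183664, minus strand: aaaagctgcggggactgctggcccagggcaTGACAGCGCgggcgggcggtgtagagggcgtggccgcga
PSMB3, chr17:38752607-38752675, plus strand: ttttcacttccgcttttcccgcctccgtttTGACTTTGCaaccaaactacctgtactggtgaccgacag
PSMD3, chr17:39980740-39980806, plus strand: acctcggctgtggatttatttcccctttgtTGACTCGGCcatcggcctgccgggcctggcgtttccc
PSMD12, chr17:67366704-67366772, minus strand: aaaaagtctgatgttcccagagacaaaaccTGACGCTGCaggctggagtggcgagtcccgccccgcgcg
The first base of the core lay 137 bases before the start in ADRM1 (1 of its listed starts), 183 in PSMG1, 104 in PSMB3, 37 in PSMD3 and 165 in PSMD12.

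Over the 44 members with a promoter in the table, 16 held the core (36.4%), against 16.1% of the 27305 genes with promoters and 19.8% of the 9332 of these that were tested here. The core was present in 3 of the 8 members with a promoter that fell (ADRM1, PSMG1 and PSMD1, the last after the start) and in 12 of the 34 that did not pass the test. An ETS core (CCGGAA, both strands) was in 23 of the 44 members (52.3%) against 36.2% of the tested genes. It was in 6 of the 8 that fell and in 17 of the 34 that did not pass the test. A CCAAT box (CCAAT, both strands) was in 21 (47.7%) against 44.1%, with 4 of the 8 and 16 of the 34. No motif contains another. These matches describe letters in a fixed window and were not tested against expression. PSMA7, PSMB1, PSMB6, PSMB7, PSMD4 and PSMG3 had no promoter in the table.

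Of the 49 members tested, 13 fell and 1 rose at an adjusted p under 0.05, while 35 did not pass the test. Over all 12233 genes tested, 25.5% were called in either direction, 13.7% lower and 11.9% higher. Among the 5429 genes in the middle of the members' range of level (33.0 to 284 CPM), 18.2% were lower and 11.1% higher. Without replicate 1 with Dox 8 members were called lower, beside 9.94% of all tested genes in that fit. The 13 that fell were PSMA7, PSMB1 and PSMB6 of the 20S core, PSMC3, PSMD1, PSMD2, PSMD4, ADRM1, PSMD11 and PSMD14 of the 19S cap, and the chaperones PSMG1, PSMG3 and POMP. The one that rose was PSMB8, an immunoproteasome subunit. The log2 fold change was negative in 36 of the 49, with a median of -0.19. Over all genes tested the median was 0.02, and 48.5% were negative. With library totals alone 28 members were negative, with a median of -0.07, and the median of all tested genes was 0.14. The 48.5% does not apply to that fit.

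**Figure D1:**
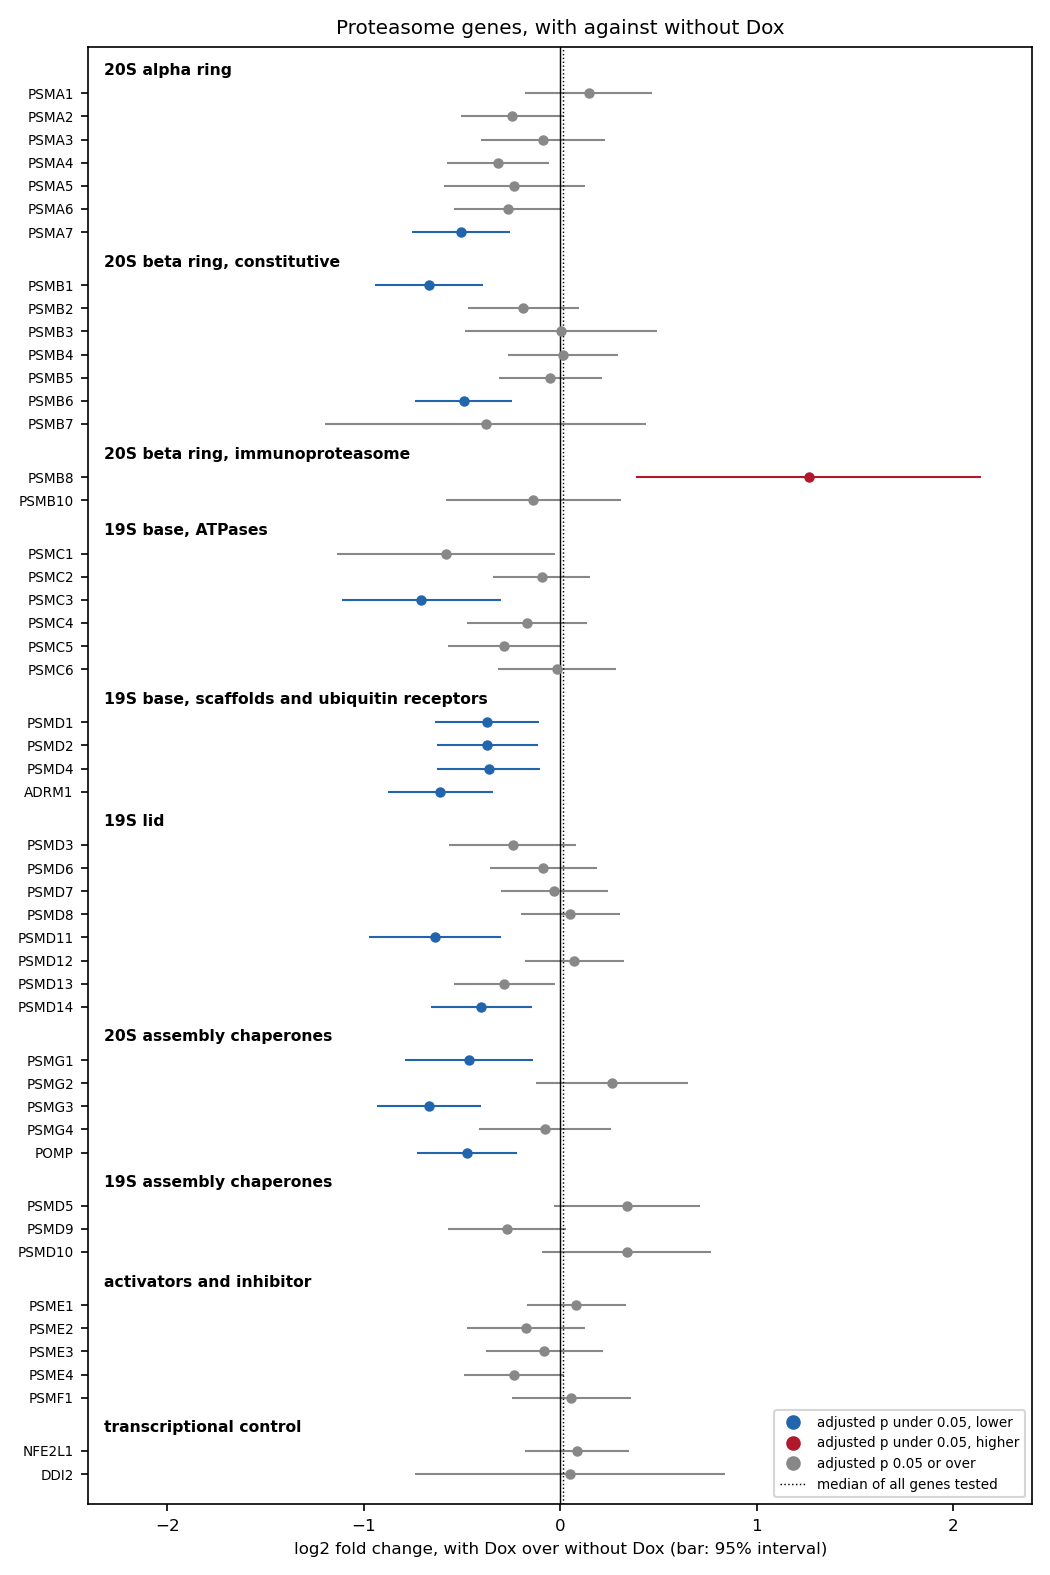
Log2 fold change (with Dox over without Dox, horizontal axis) of each of the 49 tested members by subcomplex, with its 95% interval as a bar and the median of all genes tested as a dotted line. All 10 genes of the 19S base lie left of 0, as did 48.5% of all tested genes. With library totals alone, where the median of all tested genes was 0.14, 8 of the 10 were negative. The 13 blue points passed the test as lower, and PSMB8 is the only red point.

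In the summed signal, all 50 members together summed to 7806, 8113 and 8044 CPM without Dox and to 6679, 6416 and 6782 CPM with Dox. Every library with Dox lay below every library without, and the means were 7988 ± 161 (SD, n = 3) and 6626 ± 189 (SD, n = 3), a difference of -17.1%. As a share of the raw reads counted on genes, which does not involve TMM, the members took 0.749%, 0.771% and 0.770% without Dox and 0.689%, 0.666% and 0.710% with Dox. These sums weigh the abundant subunits most.

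TMM also sets where 0 lies. Under library totals alone the median of all tested genes moved from 0.02 to 0.14 and that of the members from -0.19 to -0.07, a shift that a change of scaling gives to nearly all genes alike. With library totals, 9.29% of all genes were called lower and 17.8% higher, and 8 members were lower and 1 higher. Small changes were detected only in part on simulated counts of 12086 genes with the same depths. Of 100 genes changed by 1 on the log2 scale 80% were called, and of 99 changed by 0.5 16.2%. Far fewer genes were changed there than the 25.5% called in these data, and the adjusted p depends on that number. These shares therefore cannot be read as the power here.

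**Figure D2:**
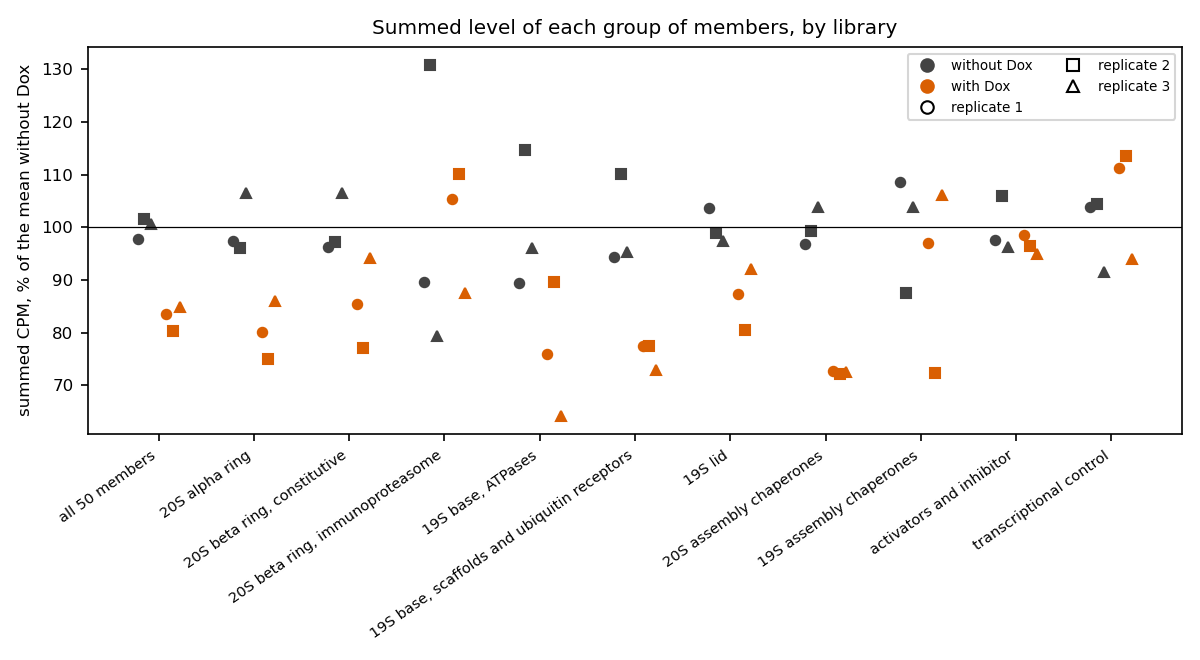
Summed CPM of all 50 members and of each subgroup in each library, as a percentage of the mean of the 3 libraries without Dox (vertical axis); the symbol gives the replicate and the colour the condition. All 50 members together, the 20S alpha and constitutive beta rings, the 19S scaffolds and receptors, the 19S lid and the 20S assembly chaperones separate fully by condition. The 19S ATPases, the 19S assembly chaperones, the activators and inhibitor, the control genes and the immunoproteasome overlap.

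The alpha ring is the gate of the 20S core. Its 7 genes summed to a mean of 1447 CPM (SD 82.7) in the 3 libraries without Dox and of 1163 CPM (SD 79.9) in the 3 with Dox. PSMA7, which encodes subunit alpha 4 and lies on chromosome 20 from 62136733 to 62143440 (GENCODE 44, hg38), was the only one of its 7 genes to pass the test. It was at 623, 623 and 644 CPM without Dox and at 458, 418 and 456 CPM with Dox. The 3 libraries without Dox were nearly equal, and the groups were far apart. PSMA7 changed by -0.50 on the log2 scale (standard error 0.12, edgeR, adjusted p = 0.00446). Among the other 6 genes, log2 fold changes ran from -0.32 for PSMA4 to 0.14 for PSMA1. In PSMA2, PSMA4 and PSMA6 every library with Dox was below every library without, an arrangement that 20.5% of all tested genes showed.

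Of the 7 constitutive beta subunits, which include the catalytic ones, 2 fell, beside the 13.7% called lower over all tested genes, a share too near for a count of 2 to say anything of the ring. PSMB1 (chromosome 6, 170535120 to 170553307), a structural beta subunit, was at 252, 296 and 338 CPM without Dox and at 176, 189 and 192 CPM with Dox. Its libraries without Dox were spread widely, and still the lowest of them was above the highest with Dox. PSMB1 changed by -0.67 on the log2 scale (standard error 0.13, edgeR, adjusted p = 0.00109).

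PSMB6 (chromosome 17, 4796144 to 4798502), which carries the caspase-like proteolytic site, was at 174, 189 and 182 CPM without Dox and at 130, 124 and 133 CPM with Dox. The values were close within each group and the groups did not overlap. PSMB6 changed by -0.49 on the log2 scale (standard error 0.12, edgeR, adjusted p = 0.00516). PSMB5, which carries the chymotrypsin-like site, had -0.05 (95% interval -0.31 to 0.21). PSMB4, the gene of this ring with the most reads, was at 318, 337 and 379 CPM without Dox and at 342, 302 and 398 CPM with Dox. Its groups overlapped completely, with a log2 fold change of 0.01 (95% interval -0.27 to 0.29) whose sign turned under 4 of 14 alternatives. PSMB7, which carries the trypsin-like site and was singled out after its values were seen, had only 10 to 22 counts per library, so that its interval ran from -1.19 to 0.44.

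The immunoproteasome replaces the catalytic beta subunits in immune cells and under interferon. PSMB8 (chromosome 6, 32840717 to 32844679) replaces PSMB5 there and was the only member called higher. It had 9, 5 and 6 counts without Dox and 20, 12 and 29 counts with Dox, or 2.35, 1.55 and 1.05 CPM against 4.35, 3.34 and 3.81 CPM. Each library with Dox was above each without, as in 19% of all tested genes, but the level was low throughout. PSMB8 had a log2 fold change of 1.26 (95% interval 0.39 to 2.14, edgeR, adjusted p = 0.0336). The call rested on the test and on single libraries: DESeq2 gave an adjusted p of 0.0930, and leaving out replicate 2 or 3 without Dox, or replicate 1 or 3 with Dox, raised it to between 0.0596 and 0.191. Over its 13 alternatives the adjusted p ran from 0.0198 to 0.191 and the log2 fold change from 0.95 to 1.59.

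PSMB9, which replaces PSMB6 and lies beside PSMB8, had 8, 1 and 5 counts without Dox and 12, 4 and 13 with Dox. It did not pass the filter, and its groups overlapped. PSMB10, which replaces PSMB7, was at 22.7, 37.8 and 22.2 CPM without Dox and at 25.0, 28.9 and 21.0 CPM with Dox. Replicate 2 without Dox stood above the rest, and the log2 fold change was -0.14 (95% interval -0.58 to 0.31), or 0.13 without that library.

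In the 19S base, 5 of 10 genes fell and none was called higher. Over all tested genes 13.7% were called lower, and 18.2% of those at a similar level. All 10 had negative log2 fold changes as reported, a sign that 48.5% of all tested genes had. PSMC6, at -0.02, turned positive in 6 of 14 alternatives, among them those without replicate 3 of either group. PSMC2 turned with library totals alone, which left 8 of 10 negative while the median of all tested genes was 0.14. In the ATPase ring, which unfolds the substrate and threads it into the core, 1 of 6 fell, a count near the 13.7% and 18.2% above. PSMC3 (chromosome 11, 47418769 to 47426473), one of these ATPases, was at 296, 423 and 345 CPM without Dox and at 236, 278 and 142 CPM with Dox. The spread within each group was wide, yet the groups did not overlap. This was a log2 fold change of -0.71 (standard error 0.19, edgeR, adjusted p = 0.0121). Without replicate 2 without Dox it was -0.57 and the adjusted p was 0.0579 (edgeR), the highest of its 14 alternatives, which began at 4.672e-06, and without replicate 3 with Dox it was -0.47.

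PSMC1, another ATPase of the ring, was singled out after its values were seen. It was at 54.1, 106 and 56.6 CPM without Dox and at 36.5, 73.7 and 35.9 CPM with Dox. The libraries numbered 2 were the highest of both groups, which overlapped for that reason. PSMC1 had a log2 fold change of -0.58 (95% interval -1.13 to -0.03, edgeR, adjusted p = 0.118). It passed the threshold without replicate 2 with Dox (-0.98, edgeR, adjusted p = 0.00272) and without a filter, and was -0.22 without replicate 2 without Dox, where the adjusted p of 0.577 was the highest of its alternatives. GENCODE 44 names 13 pseudogenes of PSMC1, the most of any member, and its 3ʹ end overlaps exons of NRDE2 on the other strand. NRDE2 had a log2 fold change of 0.61. The remaining 4 ATPase genes, PSMC2, PSMC4, PSMC5 and PSMC6, ran from -0.29 to -0.02.

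The other 4 genes of the base, its scaffolds and ubiquitin receptors, all fell, beside 13.7% called lower over all tested genes. PSMD1 (chromosome 2, 231056845 to 231173116), a scaffold subunit, was at 266, 318 and 297 CPM without Dox and at 233, 244 and 203 CPM with Dox. PSMD2 (chromosome 3, 184299198 to 184309050), the scaffold to which shuttle factors dock, was at 306, 338 and 281 CPM without Dox and at 242, 240 and 232 CPM with Dox. PSMD4 (chromosome 1, 151254709 to 151267479), a ubiquitin receptor, was at 224, 268 and 214 CPM without Dox and at 188, 180 and 180 CPM with Dox. The values with Dox were the tighter ones in PSMD2 and PSMD4. In PSMD1, PSMD2 and PSMD4 alike, every library with Dox was below every library without. Their log2 fold changes were much alike, -0.37, -0.37 and -0.36 (standard errors 0.13, 0.12 and 0.13), with adjusted p of 0.0387, 0.0328 and 0.0404 (edgeR). These calls lay near the threshold: under the 14 alternatives, PSMD1 lost its call in 7, PSMD2 in 6 and PSMD4 in 8, with adjusted p up to 0.146, 0.138 and 0.192 (edgeR), and all stayed negative. Each of them lost its call without replicate 2 without Dox and without replicate 1 or 3 with Dox, PSMD1 also without replicate 3 without Dox, PSMD2 and PSMD4 also without replicate 1 without Dox, and PSMD4 also without replicate 2 with Dox.

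ADRM1 (chromosome 20, 62302093 to 62308862) encodes the ubiquitin receptor of the base that also anchors the deubiquitinase UCHL5. It was at 102, 122 and 113 CPM without Dox and at 72.8, 71.2 and 76.6 CPM with Dox. The groups were well apart. ADRM1 changed by -0.61 on the log2 scale (standard error 0.13, edgeR, adjusted p = 0.00180). The last 500 bases of ADRM1 overlap an exon of LAMA5 on the other strand, and whether reads were counted by strand is not given in the sources used here. LAMA5 moved the other way, with a log2 fold change of 0.85 (edgeR, adjusted p = 0.0155).

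**Figure D3:**
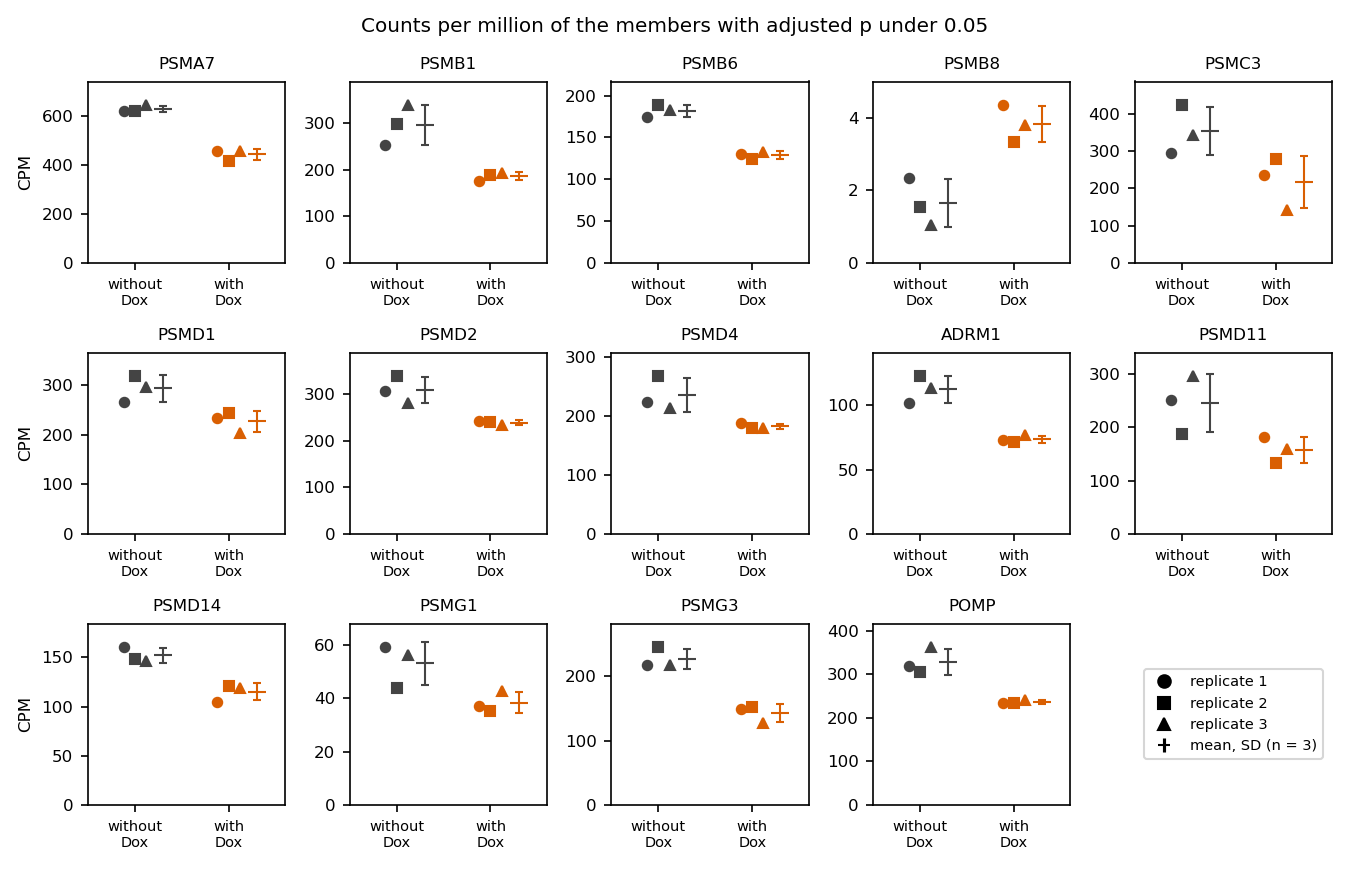
CPM (vertical axis, from 0, scaled per gene) of the 14 members with an adjusted p under 0.05, in each library without Dox (grey) and with Dox (orange), with the mean and SD of 3 libraries beside them. The groups overlap in none of the 14, which were chosen by a test between these same groups, so this adds no evidence. Over all tested genes, 20.5% had every library with Dox below and 19% above every library without. PSMB8 is the only one of the 14 higher with Dox, at 1.05 to 4.35 CPM.

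In the lid, 2 of 8 genes fell, a count that cannot be told from the 13.7% of all tested genes and the 18.2% of those at a similar level. PSMD11 (chromosome 17, 32444379 to 32483319), a scaffold of the lid, was at 252, 189 and 296 CPM without Dox and at 182, 133 and 160 CPM with Dox. Replicate 2 was the lowest library of each group, and the lowest value without Dox was only just above the highest with Dox. PSMD11 changed by -0.64 on the log2 scale (standard error 0.16, edgeR, adjusted p = 0.00666).

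PSMD14 (chromosome 2, 161308425 to 161411717) is the deubiquitinase that cuts the ubiquitin chain from the substrate. It was at 160, 149 and 147 CPM without Dox and at 105, 121 and 119 CPM with Dox. The groups were separated, with a log2 fold change of -0.40 (standard error 0.12, edgeR, adjusted p = 0.0226). Without replicate 1 of either group the call was lost, with adjusted p of 0.0964 without that control library and 0.117 without that library with Dox (edgeR), where 0.117 was the highest of its 14 alternatives and 0.0165 the lowest.

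PSMD3, the lid gene with the most reads, was at 532, 437 and 380 CPM without Dox and at 365, 315 and 458 CPM with Dox. Replicate 3 with Dox lay within the range of the control libraries, and the log2 fold change was -0.24 (95% interval -0.57 to 0.08). It was -0.12 without replicate 1 without Dox, -0.13 without replicate 2 with Dox and -0.40 without replicate 3 with Dox, and was not called in any of these. The remaining lid genes, PSMD6, PSMD7, PSMD8, PSMD12 and PSMD13, ran from -0.28 to 0.07, and PSMD13 was the only one of these without overlap. All 8 lid genes summed to a mean of 1656 CPM (SD 53.7) over the 3 libraries without Dox and of 1435 CPM (SD 96.6) over the 3 with Dox.

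Most of the chaperones that assemble the 20S core were lower with Dox. Their 5 genes summed to 658, 675 and 706 CPM without Dox and to 494, 490.3 and 493 CPM with Dox, a difference of -27.5%, beside -17.2% for the 14 constitutive core genes, and the size of one against the other was not tested. POMP, PSMG3 and PSMG1 passed the test as lower, beside 13.7% of all tested genes.

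POMP (chromosome 13, 28659065 to 28678959), the chaperone that helps the beta ring form and is destroyed by the finished core, was at 319, 306 and 362 CPM without Dox and at 234, 235 and 242 CPM with Dox. The libraries with Dox were nearly equal. POMP changed by -0.47 on the log2 scale (standard error 0.12, edgeR, adjusted p = 0.00780).

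PSMG3 (chromosome 7, 1567332 to 1571005), which pairs with PSMG4 to guide the alpha ring, was at 217, 245 and 218 CPM without Dox and at 148, 152 and 128 CPM with Dox. Its log2 fold change was -0.67 (standard error 0.13), and its adjusted p of 7.141e-04 (edgeR) was the smallest of all members. Its partner PSMG4 had -0.08 (95% interval -0.41 to 0.26).

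PSMG1 (chromosome 21, 39174769 to 39183488), which pairs with PSMG2, was at 59.0, 43.7 and 56.0 CPM without Dox and at 37.2, 35.1 and 42.6 CPM with Dox. The lowest library without Dox was close to the highest with Dox. PSMG1 changed by -0.46 on the log2 scale (standard error 0.16, edgeR, adjusted p = 0.0357). Its call was lost in 7 of 14 alternatives, among them those without replicate 1 or 3 without Dox and without replicate 1 or 2 with Dox, with adjusted p between 0.0153 and 0.147 over all 14. PSMG2 had 0.27 (95% interval -0.12 to 0.65), and whether the genes of a pair differ was not tested.

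The chaperones of the 19S base gave no call. PSMD9, the one with the most reads, was at 278, 232 and 255 CPM without Dox and at 224, 166 and 242 CPM with Dox, with a log2 fold change of -0.27 (95% interval -0.57 to 0.03), or -0.13 without replicate 2 with Dox. PSMD5 and PSMD10 both had 0.34, with intervals from -0.03 to 0.71 and from -0.09 to 0.77. None of the 3 passed an unadjusted p of 0.05, and none was called by DESeq2.

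The alternative caps gave no call either. PSME1 and PSME2 form the interferon-induced activator ring. PSME1 was at 218, 235 and 217 CPM without Dox and at 249, 241 and 220 CPM with Dox (log2 fold change 0.08, 95% interval -0.17 to 0.33). PSME2 was at 58.5, 73.2 and 64.8 CPM against 58.1, 64.6 and 52.0 CPM (-0.17, 95% interval -0.47 to 0.13). Both pairs of groups overlapped.

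PSME3 forms the nuclear activator ring. It was at 96.6, 103 and 79.4 CPM without Dox and at 89.4, 75.1 and 97.1 CPM with Dox (-0.08, 95% interval -0.38 to 0.22). PSME4, the single-chain activator PA200, was at 137, 145 and 137 CPM without Dox and at 112, 128 and 117 CPM with Dox. Its groups did not overlap, with a log2 fold change of -0.24 (95% interval -0.49 to 0.02). PSMF1, the inhibitor PI31, was at 52.5, 53.7 and 55.7 CPM against 59.6, 46.8 and 61.1 CPM (0.06, 95% interval -0.25 to 0.36). No gene of these 5 passed the test, also at an unadjusted p under 0.05 or with DESeq2.

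NFE2L1 (chromosome 17, 48048329 to 48061545), the transcription factor of the proteasome genes, was at 106, 109 and 94.6 CPM without Dox and at 113, 115 and 100.2 CPM with Dox. The groups overlapped, and the log2 fold change was 0.09 (95% interval -0.18 to 0.35, edgeR, adjusted p = 0.668). The interval does not include a fall of the size seen for PSMA7 or PSMB1. The activity of NFE2L1 depends on cleavage and release of the protein from the endoplasmic reticulum, which mRNA counts do not measure. DDI2, the protease that cleaves it, had 30, 18 and 34 counts without Dox and 41, 33 and 23 with Dox. At this depth its log2 fold change was 0.05 with an interval from -0.74 to 0.84, so that changes of a size seen in other members were not detectable.

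The genes around the proteasome were read from a list of 36, all of which were tested: 4 were lower, 3 higher and 29 did not pass, shares no higher than the 13.7% lower and 11.9% higher over all tested genes. The 3 higher became 7 with library totals alone, where 17.8% of all tested genes were called higher. They became 1 without replicate 1 or 2 without Dox, where 7.53% and 8.47% were. The 4 lower became 2 without replicate 1 without Dox, where 9.71% of all tested genes were called lower. The median log2 fold change of the 36 genes was -0.05. Of the 11 proteasome-associated factors, SEM1, the small lid subunit that the symbol rule does not cover, was lower. It was at 275, 261 and 333 CPM without Dox and at 204, 229 and 243 CPM with Dox (log2 fold change -0.37, standard error 0.13, edgeR, adjusted p = 0.0488), and lost its call in 8 of 14 alternatives, among them those without replicate 1 or 3 without Dox and without replicate 1 or 2 with Dox, with adjusted p of 0.0243 to 0.216 over all 14. UCHL5, the partner of ADRM1, and USP14, the deubiquitinase that docks on PSMD2, had -0.29 and -0.31 (95% intervals -0.58 to 0.00 and -0.57 to -0.05) and were not called. The 5 substrate shuttles gave no call in edgeR or DESeq2, with UBQLN2, at 0.40, past an unadjusted p of 0.05 in edgeR.

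Genes that process NFE2L1 went both ways. SEL1L, of the complex that extracts proteins from the endoplasmic reticulum, was at 115, 98.0 and 127 CPM without Dox and at 172, 183 and 165 CPM with Dox (log2 fold change 0.61, standard error 0.13, edgeR, adjusted p = 0.00203). NGLY1, the enzyme that strips sugars from NFE2L1, was at 31.1, 27.3 and 29.5 CPM against 41.5, 48.1 and 37.6 CPM (0.52, standard error 0.16, edgeR, adjusted p = 0.0217). Its call was lost in 5 of the 6 fits that left out 1 library, all but that without replicate 3 with Dox, with adjusted p up to 0.0761.

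UFD1, a cofactor of the extracting ATPase VCP, was at 115, 125 and 127 CPM without Dox and at 86.3, 88.5 and 76.4 CPM with Dox (-0.55, standard error 0.13, edgeR, adjusted p = 0.00337). VCP itself had -0.08 (95% interval -0.36 to 0.19). HCFC1, which with OGT stabilizes NFE2L1, was at 176, 158 and 153 CPM against 122, 99.6 and 122 CPM (-0.50, standard error 0.13, edgeR, adjusted p = 0.00859), and had an adjusted p of 0.0529 without replicate 1 without Dox, the highest of its alternatives, which began at 0.00310.

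OGT was at 38.9, 29.5 and 38.9 CPM without Dox and at 42.4, 41.5 and 77.5 CPM with Dox. Replicate 3 with Dox stood apart: with it the log2 fold change was 0.60 (edgeR, adjusted p = 0.0461), and without it 0.22 (adjusted p = 0.395). Without any 1 of the control libraries the adjusted p was 0.0613 to 0.149 (edgeR), and over all alternatives it was 0.00372 to 0.395. None of the small Maf partners MAFF, MAFG and MAFK, nor the related factor NFE2L2, passed the test, also at an unadjusted p under 0.05 or with DESeq2.

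Among the ubiquitin genes and E1 enzymes only RPS27A, a fusion of ubiquitin with a ribosomal protein, was called. It was at 4721, 5331 and 5154 CPM without Dox and at 3294, 3875 and 3039 CPM with Dox (-0.57, standard error 0.14, edgeR, adjusted p = 0.00481). The ubiquitin gene UBB had -0.14 (95% interval -0.40 to 0.11).

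**Figure D4:**
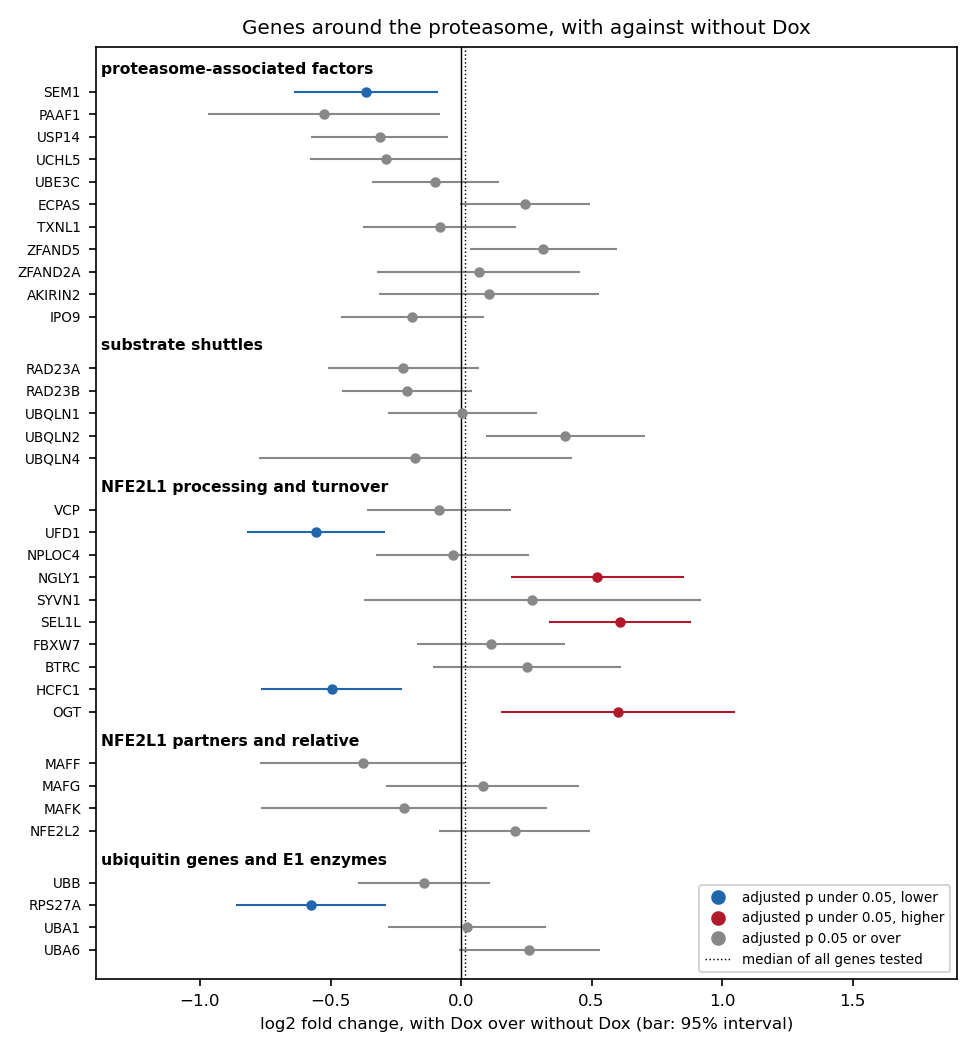
Log2 fold change (with Dox over without Dox, horizontal axis) of the genes around the proteasome that are reported here, with 95% intervals and the median of all genes tested as a dotted line. The 4 lower genes are SEM1, UFD1, HCFC1 and RPS27A, beside 13.7% called lower over all tested genes. The 3 higher genes are NGLY1, SEL1L and OGT, beside 11.9% called higher. These 3 are among the 10 genes that process NFE2L1, as are the lower genes UFD1 and HCFC1. SEM1 lost its call in 8 of 14 alternatives, NGLY1 and OGT in 5 each and HCFC1 in 1.

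The study examined the hallmark set of mTORC1 signalling, and 11 members here belong to it by a hand-copied list, unchecked against the published set. Of these 11, PSMD14 and PSMG1 fell, with a median log2 fold change of -0.10 over the 11, a count near the 13.7% called lower over all tested genes and made of calls that were lost in 3 and 7 of 14 alternatives. Of the 38 tested members outside that set, 11 fell and 1 rose, with a median of -0.23. The difference between the sets was not tested. PSMA7, PSMB1, PSMG3 and ADRM1, each with an adjusted p under that of any member in the set, were among those outside it.

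Of the 13 members that fell, 7 were called under each of the 14 alternatives: PSMA7, PSMB1, PSMB6, ADRM1, PSMD11, PSMG3 and POMP. The share of all tested genes that kept a call so was not computed, so the 7 describe these genes alone. Their adjusted p stayed between 1.655e-05 and 0.0434 in those fits (edgeR, DESeq2 or limma). The log2 fold changes of the 7 lay between -0.80 and -0.35. PSMA7 is the only one of them from the alpha ring, ADRM1 from the base and PSMD11 from the lid.

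**Figure D5:**
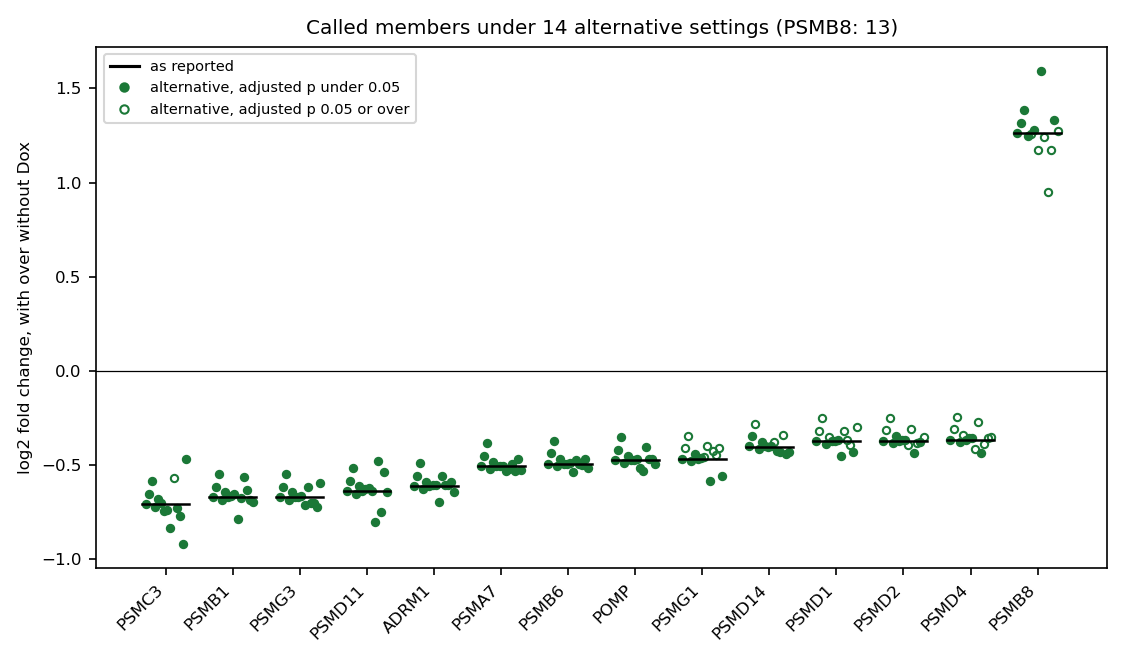
Log2 fold change (vertical axis) of the 14 called members as reported (black line) and under each alternative (circles, filled where the adjusted p was under 0.05). The sign held in every circle, and 7 genes, PSMA7, PSMB1, PSMB6, ADRM1, PSMD11, PSMG3 and POMP, have only filled circles. The share of all tested genes that would have only filled circles was not computed.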

How the data were processed

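QuantSeq 3ʹ mRNA libraries of 6 samples were analysed. Reads were aligned by the authors with STAR (hg38), and a table of raw counts for each gene symbol was deposited. The submitters' processing notes also name CASAVA 1.8.2, FastQC, HTSeq and edgeR. Which annotation was counted, and whether by strand, is not given in the sources used here. The methods name the REV kit and the labels the FWD kit. A second deposited form, used as an alternative only, is a normalized signal per library, scaled to nearly equal totals by a method that is not given; 27 row names differed from the count table, none a member.

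Counts were tested in R 4.3.3 with edgeR 4.0.16 (TMM, filterByExpr, quasi-likelihood test, Benjamini-Hochberg over 12233 genes, threshold 0.05), with limma 3.58.1 (log2 of signal plus 1) and DESeq2 1.42.0 as alternatives. The 5 rows that name no gene were left out of library sizes; no-feature and ambiguous reads were 32.5% to 39.5% and 3.05% to 3.37% of those listed. Standard errors are the log2 fold change over the root of the F statistic, and 95% intervals use that error and its degrees of freedom. A count of 3, the limit taken for detection, is 0.394 to 0.930 CPM, for counting error only, since reads carry no molecular identifiers. Replicates all differed beyond sampling noise (chi-square per degree of freedom 4.35 to 12.2). The labels do not say that replicates are separate cultures, so p-values measure the spread between these libraries, which may be technical.

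The members, the subgroups and the gene lists were chosen with earlier results of these data known, so no list was tested as a set. Values per library are given for each called member, for all members of the immunoproteasome, the activators and inhibitor and the control genes, for the member with the most reads in each other subgroup, and for the called genes of the surrounding list; PSMC1, PSMB7 and PSMA4 were added after their values were seen, and other members appear by their log2 fold changes. KIAA0368 was read as ECPAS. Some genes counted in the surrounding list are not reported here by name. Coordinates are those of GENCODE 44. An exon of another gene lies in the last 500 bases of 9 members, of which 1 was called, and 45 named pseudogenes belong to 18 members; reads shared with them are uncertain. On the simulated counts, with few changed genes, 6.8% of calls were false, a share that need not hold for these data. The other assays of the study were not analysed here.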

Additional observations from a re-analysis of the deposited data

Results flagged for a closer look

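Tested rows with names like the members' but outside the rule were kept if each library with Dox was above each without. Of all tested genes, 19% showed that. The tested rows not kept were PSMA3-AS1 (log2 fold change 0.23, groups overlapping) and PSMC3IP (-0.64, edgeR, adjusted p = 0.0255). PSMG3-AS1, the antisense neighbour of PSMG3, had 14, 6 and 20 counts without Dox and 30, 18 and 47 counts with Dox. Its separation in CPM is what it was chosen by. Its log2 fold change was 0.94 (95% interval 0.22 to 1.66, edgeR, adjusted p = 0.0506), while PSMG3 fell. PSMD5-AS1 had 24, 20 and 40 counts without Dox and 56, 35 and 66 with Dox, a log2 fold change of 0.63 (95% interval 0.09 to 1.17, edgeR, adjusted p = 0.0837). Neither passed the threshold. Without knowledge of strand, reads of a gene and of its antisense partner cannot be told apart where they overlap.

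Reads that matched no counted gene were also more frequent in each library with Dox, with a mean of 37.1% ± 2.06 (SD, n = 3) against 33.3% ± 1.13 (SD, n = 3) without Dox.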

How the results depend on the processing

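The ABHD5 log2 fold change stayed past the threshold in each alternative. The number of members called lower was 13, and 9 to 15 under the alternatives that used all libraries, except library totals alone, which gave 8; the losses there were PSMD1, PSMD2, PSMD4, PSMD14 and PSMG1. With 1 library left out it was 8 to 13, the 8 being without replicate 1 with Dox, where 9.94% of all tested genes were called lower. The number called higher, 1, was 0 with at least 10 counts in every library, which removed PSMB8 from the test, 0 with DESeq2 (1 at an unadjusted p under 0.05) and 0 with the deposited normalized values (limma, 1 at an unadjusted p under 0.05), and 0 to 1 with 1 library left out. The median log2 fold change of the members was -0.13 with upper-quartile normalization, -0.066 with library totals alone and -0.23 to -0.18 with 1 library left out. The median of all tested genes moved too, from 0.016 to 0.071 with upper-quartile normalization and to 0.14 with library totals alone. In the surrounding list, the number called higher, 3, was 5 with upper-quartile normalization, 7 with library totals alone and 5 with the replicate block. Of all tested genes 14.3%, 17.8% and 13.5% were called higher in those fits. With 1 library left out the number called higher in the list was 1 to 4, and the number called lower, 4, was 2 to 5. The cause of the shifts in these counts was not tested, except where fewer genes or samples were tested.

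Genes near 0 changed sign. PSMB4 had -0.0028 without a filter and -0.10 to 0.10 with 1 library left out. PSME3 had 0.042 with library totals alone and -0.19 to 0.012 with 1 library left out. DDI2 had -0.034 with the replicate block, -0.077 with the normalized values and -0.21 to 0.49 with 1 library left out. PSMB10 ranged from -0.29 to 0.13 and PSMF1 from -0.017 to 0.16 with 1 library left out.

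Replicate numbers were not taken as pairs, since the deviations from the group mean of libraries with the same number correlated across genes with r of only -0.01, 0.23 and 0.09. With the number as a replicate block, 15 members were lower and 1 higher, PSMA4 (-0.31) and PSMC1 (-0.58) being added to the 13. Depth limits what can be said of PSMB7, PSMB8, PSMB9 and DDI2, each at 41 counts or fewer per library.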
